A study of Mus musculus with 8 samples.

Results

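The type I interferon response genes examined here are 34 genes of the mouse that cells switch on after sensing viral nucleic acid or interferon. They were chosen by name, with earlier results of these data known, as 1 row each of a deposited table of 55880 rows. All 34 were found, no symbol was repeated, and all had enough counts to be tested among 14074 tested genes. Interferons bind a receptor on the cell surface, and kinases bound to that receptor phosphorylate STAT proteins. STAT2 and IRF9 are part of the complex that then binds the interferon-stimulated response element in the promoters of antiviral genes. Part of the same genes can also be switched on by IRF3 directly, before any interferon is made, and dendritic cells are known to keep many of them on at a basal level.

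RNA was sequenced from dendritic cells grown out of the bone marrow of wild-type C57BL/6 mice, males of 6 weeks, in a culture of 6 days with 10 ng/mL IL-4 and 20 ng/mL GM-CSF. Both groups share this background. The titles of the 4 Control libraries say Control, which was read here as untreated cells. The 4 libraries called LMF come from cells loaded with ITRs for 24 h and then placed in a low-frequency magnetic field, and RNA was taken at 6 h. The labels do not spell out ITR. With Control read as untreated, a group with ITRs or field alone was not analysed here. The effects of the ITRs and of the field therefore cannot be told apart. Another label field gives all 8 samples the same treatment, and the groups were therefore read from the sample titles. The labels leave unsaid whether libraries of a group are separate mice or cultures, so the p-values measure the spread between libraries, which may be technical. Library totals were 17309368 to 21585750 counts in Control and 16592672 to 18532878 in LMF. The antigen-presentation genes H2-Ab1 and Cd74 and the integrin Itgax, which mark dendritic cells, were abundant in both groups, while the T cell gene Cd3e stayed under 1 CPM (read counts scaled to library size) on average and the dendritic cell lectin Cd209a had at most 5 counts per library. These are bulk samples, in which fewer cells of a type and less RNA per cell cannot be told apart.

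Most of the interferon response genes were higher in LMF, by small to moderate amounts, and none was called lower. With edgeR's quasi-likelihood test, adjusted over all tested genes and read at 0.05, 24 of the 34 rose and 10 did not pass. Of all tested genes 17.5% were called higher and 16.9% lower. In 20 of the 34 every LMF library lay above every Control library, which holds for 16.1% of all tested genes. The median log2 fold change of the 34 genes was 0.35, beside a median near 0 for all genes (-0.000221). Log2 fold changes ran from -0.06 to 1.47, and 3 genes, Isg15, Ifit1 and Rsad2, changed at least 2-fold.

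**Figure D1:**
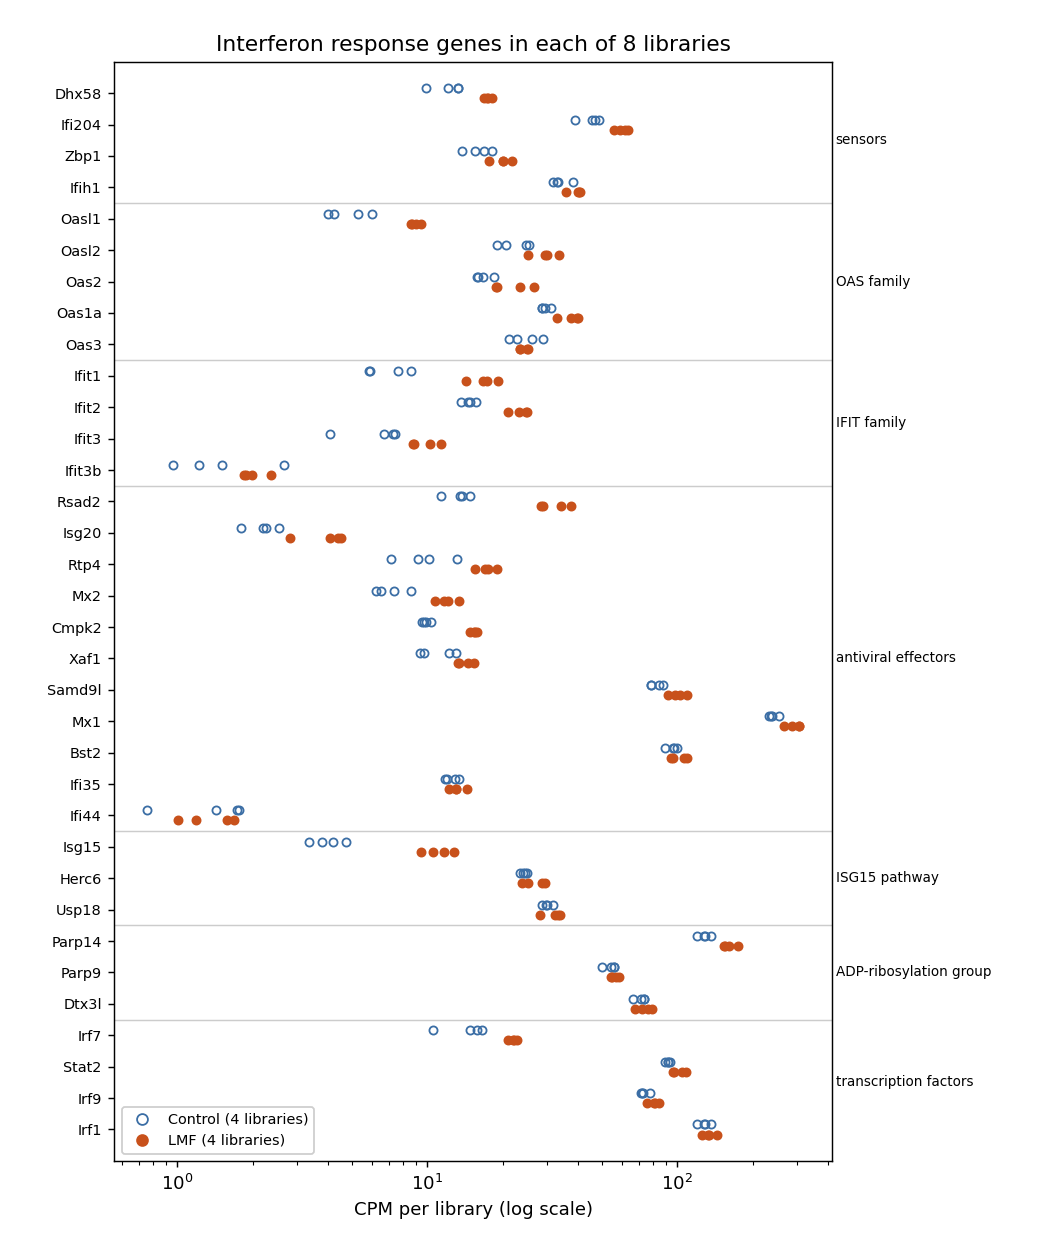
Each circle is 1 library, with the level of each gene in CPM on a log axis, Control as open circles and LMF as filled ones (4 each), and genes grouped by role. For Isg15, Ifit1 and Rsad2 the filled circles lie well to the right of the open ones, and for Usp18, Irf1 and Oas3 they lie among them.

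The sensors of foreign nucleic acid were all higher in LMF. Ifi204, a DNA-binding protein of the AIM2-like receptor family, was at 45.5, 48.4, 47.0 and 39.1 CPM in the Control libraries and at 55.7, 59.0, 63.7 and 61.9 CPM in LMF. The 2 groups did not overlap, and the log2 fold change was 0.42 ± 0.06 (SE, n = 4 per group, adjusted p = 1.83e-06). Its transcripts share 20.02% of their 50-mers with other genes, mostly Ifi211, so a part of its counts is uncertain. Dhx58, or LGP2, which modulates the RIG-I-like receptors, rose from 12.1 ± 1.59 to 17.4 ± 0.544 CPM (mean ± SD), a log2 fold change of 0.52 ± 0.10 with an adjusted p of 6.98e-05. Ifih1, or MDA5, which senses long double-stranded RNA, was at 31.8 to 38.2 CPM in Control and 35.7 to 40.6 CPM in LMF, and these ranges overlapped. Its call (log2 fold change 0.20 ± 0.07, adjusted p = 0.0244) was lost in 6 of the 8 fits that left out a library (all but those without Control or LMF replicate 1) and on both log2 FPKM scales, with adjusted p-values up to 0.105. Zbp1, a sensor of Z-form nucleic acid that can start necroptosis, was at 0.31 ± 0.09 (adjusted p = 0.0105) and lost its call without Control replicate 4 (0.0681) or LMF replicate 3 (0.0554).

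In the family of oligoadenylate synthetases and their relatives, whose enzymatically active members sense double-stranded RNA and make the messenger that activates RNase L, 4 of 5 genes rose and Oas3 did not. Oasl1, which in the mouse holds back translation of Irf7, was at 4.22, 5.28, 6.00 and 4.01 CPM in Control and at 8.64, 8.96, 8.58 and 9.47 CPM in LMF. Every LMF value lay above every Control value, and the log2 fold change was 0.87 ± 0.14 (adjusted p = 8.22e-06). Its neighbour Oasl2 rose less, by 0.40 ± 0.09, from 22.5 ± 3.26 to 29.6 ± 3.45 CPM, with groups that overlapped. Oas2 stood at 15.8 to 18.5 CPM in Control and 18.8 to 26.6 CPM in LMF (0.39 ± 0.10, adjusted p = 0.00207). Oas1a, with a log2 fold change of 0.34 ± 0.07 (adjusted p = 1.80e-04), shares 57.6% of its transcript 50-mers with other genes, mostly with Oas1g, so its counts are uncertain. Oas3, which lies beside Oas2, was at 24.8 ± 3.54 CPM in Control and 24.4 ± 0.943 CPM in LMF (log2 fold change -0.02 ± 0.09, adjusted p = 0.863).

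The IFIT genes encode proteins that bind foreign RNA, and 3 of the 4 rose. Ifit1 (ENSMUSG00000034459, chromosome 19) was at 5.92, 8.58, 7.63 and 5.82 CPM in the Control libraries and at 14.3, 17.3, 16.7 and 19.2 CPM in LMF. The lowest LMF library lay well above the highest Control library, with a log2 fold change of 1.27 ± 0.12 and an adjusted p of 2.41e-10. Ifit2 rose from 14.6 ± 0.867 to 23.5 ± 1.85 CPM (0.68 ± 0.09, adjusted p = 9.82e-08). Ifit3 was at 4.07 to 7.43 CPM in Control and 8.80 to 11.4 CPM in LMF (log2 fold change 0.61 ± 0.15, adjusted p = 0.00145), and Ifit3b, a low copy of it, was at 0.963 to 2.67 and 1.85 to 2.37 CPM and did not pass (0.35 ± 0.29, adjusted p = 0.385). Ifit3 and Ifit3b are near-identical copies, with 51.2% and 45% of their 50-mers found in other genes, so how reads were split between them is uncertain.

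Of 11 antiviral effectors 8 rose, and Rsad2 rose most of them. Rsad2 (ENSMUSG00000020641, chromosome 12), or viperin, a radical SAM enzyme that turns CTP into a terminator of viral RNA chains, was at 11.4, 14.9, 13.5 and 13.7 CPM in Control. In LMF it was at 28.4, 34.1, 29.0 and 37.6 CPM, all above the Control values, a log2 fold change of 1.27 ± 0.10 with an adjusted p of 5.95e-13, the smallest of the 34. Cmpk2, a nucleotide kinase encoded next to it, varied little within groups and rose from 9.87 ± 0.342 to 15.4 ± 0.398 CPM (0.64 ± 0.10, adjusted p = 2.78e-06). Rtp4, which binds and restrains the kinase TBK1, was at 7.15 to 13.2 CPM in Control and 15.5 to 19.1 CPM in LMF (log2 fold change 0.80 ± 0.13). The exonuclease Isg20 rose by 0.84 ± 0.21 from a low 2.21 ± 0.311 CPM, and LMF replicate 4, at 2.83 CPM, lay near the highest Control library at 2.56 CPM.

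The dynamin-like GTPases Mx1 and Mx2 differed in level and in fold change. Mx1, which in most inbred mice including C57BL/6 encodes no working protein, was at 254, 232, 239 and 238 CPM in Control and at 306, 266, 308 and 288 CPM in LMF (0.28 ± 0.04, adjusted p = 3.26e-06). Mx2 was far lower, at 6.22 to 8.57 CPM in Control, and rose by 0.73 ± 0.12 to between 10.7 and 13.4 CPM. Samd9l, a translation-inhibiting restriction factor, was at 0.28 ± 0.05 with groups apart. Xaf1, a pro-apoptotic antagonist of XIAP, was at 0.36 ± 0.11 (adjusted p = 0.0117) and lost its call without Control replicate 1 or 4 or LMF replicate 3, at adjusted p-values of 0.052 to 0.0754. Bst2, or tetherin, which holds budding virus at the cell surface, had 95.6 ± 4.32 CPM in Control and 101 ± 7.47 CPM in LMF (log2 fold change 0.08 ± 0.05, adjusted p = 0.206). Ifi35 (0.08 ± 0.10) and Ifi44 (-0.06 ± 0.31, from 13 to 33 counts per library) did not pass either.

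The ISG15 system was uneven. Isg15 (ENSMUSG00000035692, chromosome 4), a ubiquitin-like protein that is attached to other proteins, was at 3.81, 4.21, 3.35 and 4.71 CPM in Control and at 9.43, 10.5, 12.7 and 11.7 CPM in LMF. The groups lay far apart, and the log2 fold change of 1.47 ± 0.14 (adjusted p = 1.94e-10) was the largest of the 34. Herc6, the main ligase for ISG15 in mice, was at 24.3 ± 0.616 CPM in Control and 27.0 ± 2.73 CPM in LMF (log2 fold change 0.15 ± 0.08, adjusted p = 0.148). Usp18, the protease that removes ISG15 and that also blocks the interferon receptor as a feedback inhibitor, was at 30.2, 31.8, 28.8 and 29.7 CPM in Control and at 34, 32.5, 33.5 and 28.3 CPM in LMF. Its groups overlapped and it did not pass (0.09 ± 0.07, adjusted p = 0.357). In the ADP-ribosylation group Parp14, a mono-ADP-ribosyltransferase, rose from 128 ± 6.94 to 161 ± 9.74 CPM (0.33 ± 0.05, adjusted p = 6.19e-07). Parp9 (0.05 ± 0.06) and its ubiquitin ligase partner Dtx3l (0.05 ± 0.05) did not pass. These 2 genes overlap on opposite strands, and their values are uncertain where the counting ignored strand.

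Among the transcription factors Irf7 had the largest change. Irf7, which amplifies interferon production, was at 14.8, 16.5, 15.8 and 10.5 CPM in Control and at 21.1, 21.9, 22.8 and 22.3 CPM in LMF (0.61 ± 0.10, adjusted p = 1.23e-05). Control replicate 4 was the low one of its group, and the fold change without it was 0.48. Stat2, at 89.5 to 93.5 CPM in Control and 96.1 to 109 CPM in LMF, rose by 0.15 ± 0.05 (adjusted p = 0.0136), a call lost without Control replicate 1, LMF replicate 3 or LMF replicate 4 and on both log2 FPKM scales (adjusted p 0.051 to 0.0881). Irf9 was at 0.13 ± 0.05 (adjusted p = 0.0388) and lost its call in the same 6 fits as Ifih1, with adjusted p-values up to 0.134, and in 5 other alternatives, namely library size as the only scaling, no filter on low counts, the replicate block and both log2 FPKM scales. Irf1, which gamma interferon and NF-kappaB also induce, was at 128 ± 6.43 CPM in Control and 134 ± 7.33 CPM in LMF (log2 fold change 0.06 ± 0.05, adjusted p = 0.307). Irf7 overlaps Phrf1 and Irf9 overlaps Rnf31, both well expressed, so a part of their counts may be the neighbour's.

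**Figure D2:**
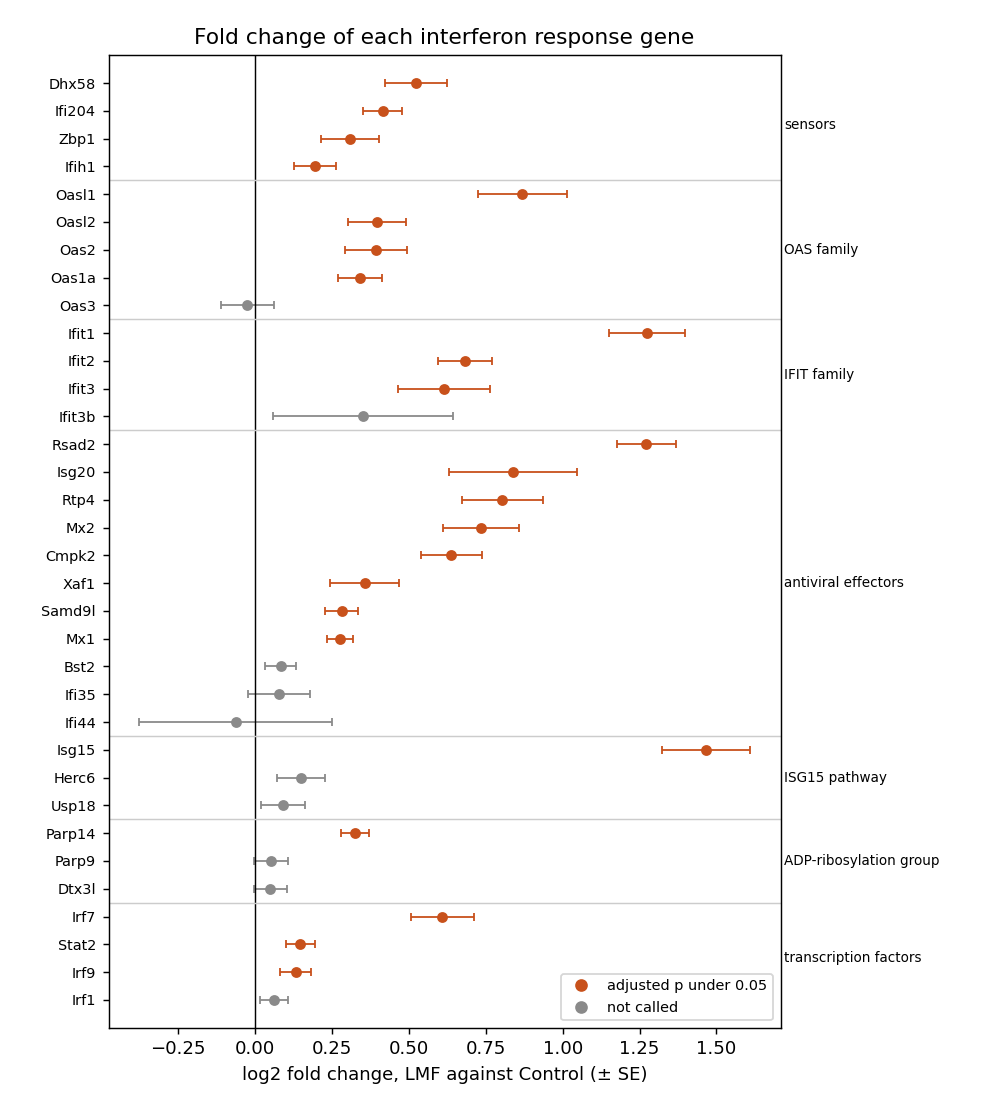
Each point is the fitted log2 fold change of 1 gene between 4 LMF and 4 Control libraries, bars give ± SE, with genes passing an adjusted p of 0.05 in orange. Isg15, Ifit1 and Rsad2 lie beyond 1, and the 10 genes that did not pass lie between -0.06 and 0.35.

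The size of the change differed with the level in Control. The 11 genes with a log2 fold change of at least 0.6 had Control means of 2.21 to 14.6 CPM. Not all low genes changed that much, as the 18 genes under 20 CPM in Control ran from -0.06 to 1.47, with 15 called. The 9 genes at 50 CPM or more in Control had log2 fold changes of 0.05 to 0.33, with 5 of them called. In length-corrected levels, the deposited FPKM, which also divide by gene length, the most abundant in Control were Bst2 at 106 ± 4.09, Mx1 at 63.7 ± 2.91 and Irf1 at 32.3 ± 1.54 FPKM, and Ifi44 was the least, at 0.232 FPKM. Among the 3 abundant ones, only Mx1 was called. Since the Control value enters both the level and the fold change, this is a description with no test.

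The libraries did not contribute alike. The median of the 34 genes, as log2 CPM against the Control mean, was -0.08 to 0.08 in the Control libraries and 0.29, 0.34, 0.45 and 0.34 in LMF replicates 1 to 4. LMF replicate 1 was the lowest LMF library for 20 of the 34 genes and Control replicate 4 the lowest Control library for 18. The same counts were not made over all tested genes, so whether they are particular to the 34 was not tested. Without LMF replicate 3, 19 of the 34 genes were called, and without Control replicate 4, 20. The median fold change was 0.30 without LMF replicate 3 and 0.29 without Control replicate 4.

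For 16 pairs of related or neighbouring members the log2 ratio of their counts was computed in each library, a measure from which sequencing depth and scaling drop out. The pairs were chosen with the fold changes above known and several share a gene, so the ratios are a description, with no test. The log2 ratio of Isg15 to Usp18 was -2.91 ± 0.188 in Control and -1.54 ± 0.255 in LMF (mean ± SD, n = 4 each), a difference of 1.37. The ratio of Rsad2 to Cmpk2 was higher in LMF by 0.63, that of Ifit1 to Ifit2 by 0.60, that of Irf7 to Irf9 by 0.50 and that of Oasl1 to Oasl2 by 0.49. For Mx1 against Mx2 the difference was -0.47, and for Ifih1 against Dhx58 it was -0.33. In each of these pairs the LMF libraries lay apart from the Control libraries.

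In other pairs the libraries of both groups overlapped. For the partners Dtx3l and Parp9 the log2 ratio differed by -0.00441 between groups, with a range of -0.06 to 0.05 over the values without 1 library. Stat2 against Irf9, subunits of one complex, differed by 0.01, and Ifit2 against Ifit3 by 0.03. Ifit1 against Ifit3 differed by 0.63, and 1 Control library reached the LMF range.

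**Figure D3:**
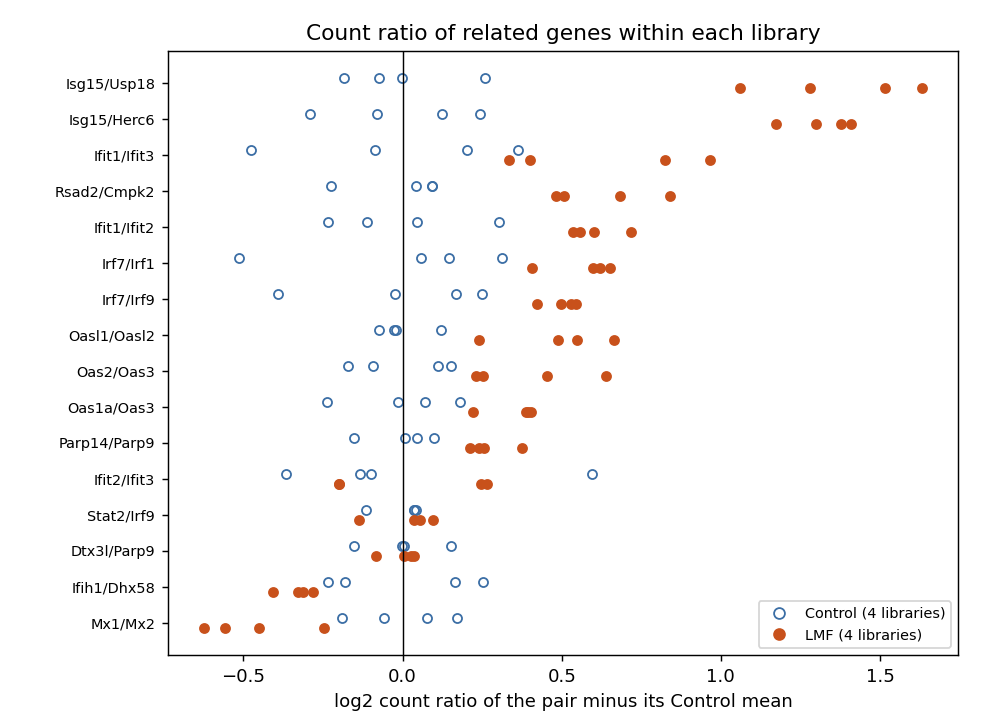
Circles give the log2 ratio of the counts of 2 genes in 1 library minus the mean ratio of the Control libraries, open for Control and filled for LMF (4 each). The ratio of Isg15 to Usp18 and to Herc6 lies above 1 in every LMF library, and Dtx3l against Parp9 and Stat2 against Irf9 lie around 0 in both groups.

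Promoters of some of the 34 genes, Isg15, Ifit1 and Rsad2 among them, hold letters like the element that interferon-activated factors are known to bind. RefSeq promoter windows (build GRCm38.p6, 250 bases before to 50 after the start) were at hand for 24 of the 34 genes, and not for Dhx58, Ifi204, Mx1, Mx2, Oas2, Parp9, Parp14, Rtp4, Usp18 and Zbp1. An ISRE-like motif, written GAAANNGAAA and searched on both strands, was found in 10 of these 24 (41.7%) and in 3.99% of 27025 genes with such a window. Other genes of the pathway hold it as well, from 0 of 7 receptor and kinase genes to 10 of 11 guanylate-binding and immunity-related GTPases (90.9%). Of further interferon-stimulated genes outside the 34 it was in 24 of 54 (44.4%). Among the 24 members the motif was found in 7 of 16 called and in 3 of 8 that did not pass, among the latter Bst2 and Oas3. A GAS-like motif, TTCNNNGAA, was in 6 of the 24 (25.0%) and in 9.55% of all genes, and 1 of its 6 matches overlapped an ISRE-like one. An AP-1-like motif, TGANTCA, was in 6 of the 24 and in 8.97% of all. A match is a run of letters and does not show that a factor bound there.

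The bases before the start are shown for the 4 genes with a promoter window and the smallest adjusted p, and for Irf1, which did not pass, so that their elements can be compared. Capitals mark ISRE-like matches in the first 3 and GAS-like matches in Ifit2 and Irf1. Isg15 (chr4:156200819-156201068, minus strand) holds 3 overlapping ISRE-like matches that begin 78, 72 and 66 bases before the start, Ifit1 (chr19:34640639-34640888, plus strand) holds 2, and Rsad2 (chr12:26456453-26456702, minus strand) holds 1. For Ifit2 (chr19:34550444-34550693, plus strand) neither of its 2 windows holds one, and the same is true of Irf1 (chr11:53769764-53770013, plus strand), whose GAS-like match begins 90 bases before the start. The first window of each is shown.
Isg15: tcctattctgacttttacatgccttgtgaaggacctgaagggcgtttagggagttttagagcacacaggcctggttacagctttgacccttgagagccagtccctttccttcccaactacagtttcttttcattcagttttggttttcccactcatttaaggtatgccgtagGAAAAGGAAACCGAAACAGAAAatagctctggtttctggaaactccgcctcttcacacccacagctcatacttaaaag
Ifit1: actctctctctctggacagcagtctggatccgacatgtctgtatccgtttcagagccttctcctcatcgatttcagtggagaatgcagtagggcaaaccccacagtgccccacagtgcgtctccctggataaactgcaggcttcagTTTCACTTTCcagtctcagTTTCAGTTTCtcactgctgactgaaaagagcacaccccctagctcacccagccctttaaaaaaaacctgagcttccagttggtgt
Rsad2: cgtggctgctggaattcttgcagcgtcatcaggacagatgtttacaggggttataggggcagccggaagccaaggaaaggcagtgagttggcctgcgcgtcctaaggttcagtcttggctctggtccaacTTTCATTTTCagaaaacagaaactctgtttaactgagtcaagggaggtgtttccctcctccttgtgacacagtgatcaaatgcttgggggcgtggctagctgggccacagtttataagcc
Ifit2: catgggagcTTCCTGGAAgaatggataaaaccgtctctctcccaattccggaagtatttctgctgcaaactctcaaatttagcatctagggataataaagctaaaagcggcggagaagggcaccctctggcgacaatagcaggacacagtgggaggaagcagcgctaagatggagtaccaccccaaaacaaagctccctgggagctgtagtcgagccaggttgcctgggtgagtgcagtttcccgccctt
Irf1: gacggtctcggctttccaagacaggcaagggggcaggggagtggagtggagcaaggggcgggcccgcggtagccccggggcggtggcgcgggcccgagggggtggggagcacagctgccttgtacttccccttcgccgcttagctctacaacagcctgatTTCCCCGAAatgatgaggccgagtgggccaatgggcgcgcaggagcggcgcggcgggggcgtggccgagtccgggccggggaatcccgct

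Transcripts of the interferons themselves were hardly detected. None of the 10 interferon genes listed had enough counts to be tested, and 7 had no count in any library. Ifnb1, interferon beta, had 0, 1, 1 and 0 counts in the Control libraries and 5, 3, 2 and 4 in LMF. The LMF libraries were the higher ones, but with 2 and 14 counts in all the difference was not past the threshold when genes of low count were tested too (adjusted p = 0.195). Ifng had 2 counts in 1 LMF library and none elsewhere.

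Upstream genes went in both directions. The receptor chain Ifnar1 rose from 156 ± 5.49 to 209 ± 7.43 CPM (0.43 ± 0.04), and its partner Ifnar2 was at -0.12 ± 0.05 and did not pass (adjusted p = 0.0575). Of 8 receptor and kinase genes 4 rose, among them the kinase Jak2 (0.30 ± 0.04), and 2 fell, among them Ifngr1, the receptor for gamma interferon, at -0.55 ± 0.04. Of 18 genes of nucleic acid sensing and its adaptors 6 rose and 7 fell. Over all tested genes 17.5% were called higher and 16.9% lower. The kinase Ikbke, which activates IRF3 and IRF7, rose from 217 ± 7.56 to 317 ± 2.62 CPM and the adaptor Traf3 by 0.69 ± 0.05, while the RNA receptor Tlr7 fell by 0.56 and the lipopolysaccharide receptor Tlr4 by 0.41 on the log2 scale.

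Other transcription factors of the pathway changed little. Of 8 further STAT and IRF genes 1 rose and 3 fell, beside 17.5% and 16.9% of all tested genes. Irf3, which acts before interferon is made, was at 65.6 to 69.7 CPM in Control and 54.3 to 61.3 CPM in LMF (log2 fold change -0.24 ± 0.05, adjusted p = 4.78e-04), and Irf2 and Irf5 were at -0.22 ± 0.05 and -0.11 ± 0.04. For Irf5, which overlaps the expressed gene Tnpo3, the call was lost when Control replicate 2, 3 or 4 or LMF replicate 4 was left out (up to 0.16). Irf8, a factor that dendritic cells need, was at -0.01 ± 0.05 (adjusted p = 0.911). Of 11 feedback and restraint genes 5 rose and 3 fell, beside 17.5% and 16.9% of all tested genes. Socs3 was at 1.60 ± 0.10, Tnfaip3 (A20) at 1.23 ± 0.04, Socs1 at 0.41 ± 0.10 and the RNA-editing enzyme Adar at 0.27 ± 0.06.

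Among further interferon-stimulated genes outside the 34, 16 of 64 tested rose and 13 fell, with a median of 0.04. The shares over all tested genes are 17.5% and 16.9%. The share called higher was 25% here and 23.5% in the GTPases that follow, and whether these exceed 17.5% was not tested. The helicase Helz2 rose from 181 ± 1.49 to 290 ± 8.99 CPM (0.68 ± 0.04) and the chemokine Cxcl10 from 1.98 ± 0.740 to 34 ± 4.64 CPM (4.11 ± 0.16), while the membrane protein Ifitm6 fell by 0.59 on the log2 scale. Of 17 tested guanylate-binding and immunity-related GTPases 4 rose and 3 fell, with Gbp5 at 0.59 ± 0.09, Irgm1 at 0.40 ± 0.06 and Gbp8, whose annotation overlaps Gbp4 and Gbp9, at -0.31 ± 0.08. Whether the 34 genes differ from these lists was not tested. Over all the pathway lists 36 of 126 tested genes rose and 31 fell.

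**Figure D4:**
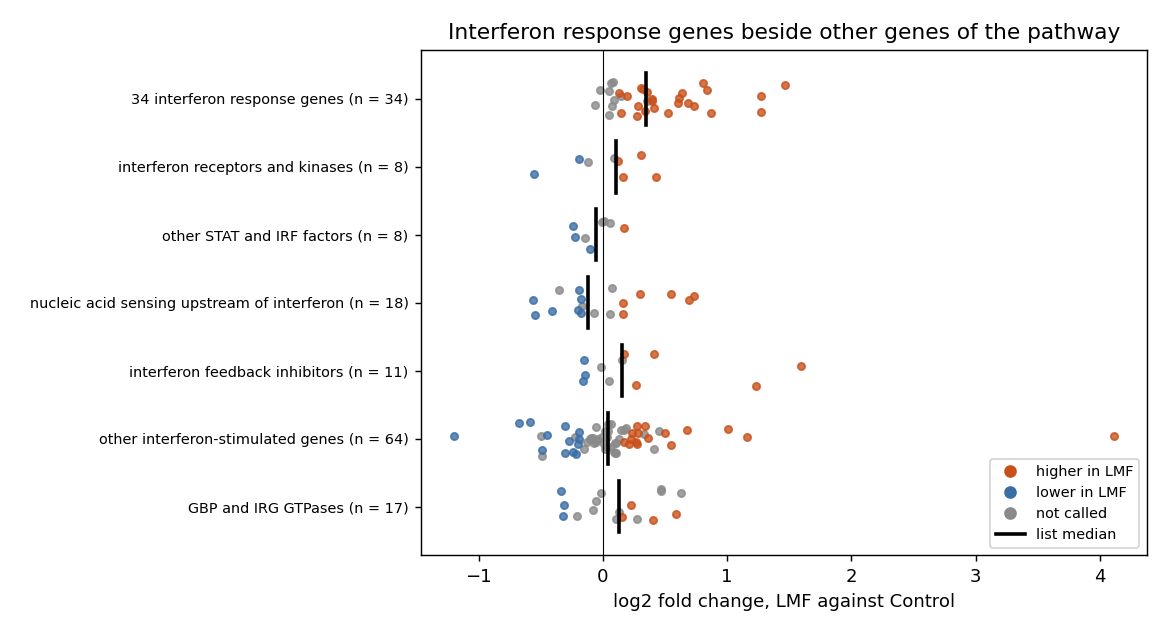
Each point is the log2 fold change of 1 tested gene, LMF against Control, in the 34 interferon response genes and in lists of other pathway genes, coloured by its call at an adjusted p of 0.05, with the list median as a black bar. The 34 genes have a median of 0.35 and no gene called lower, and every other list shown holds genes called in both directions.

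Markers of dendritic cells and of other cell types also changed. The counts below stand beside 17.5% of all tested genes called higher and 16.9% called lower. Of 12 macrophage markers 9 fell, and their summed level was 30668 to 33779 CPM in Control and 22838 to 25978 CPM in LMF. Most of that sum is Lyz2, at 25751 ± 1204 and 19417 ± 1342 CPM, and Apoe, at 3162 ± 206 and 1302 ± 83.0 CPM. Of 11 tested markers of conventional dendritic cells 5 rose and 2 fell, with sums of 6778 to 7158 CPM in Control and 6751 to 7704 CPM in LMF. The integrin Itgax rose by 0.43 ± 0.06, the growth factor receptor Flt3 by 0.49 ± 0.07 and the transcription factor Zbtb46 by 0.35 ± 0.07 on the log2 scale, and Clec9a, a receptor of cross-presenting cells, was at -0.68 ± 0.12. Plasmacytoid dendritic cells make much interferon, and Bst2 is also used as their marker. Of 7 tested plasmacytoid markers 2 rose and 1 fell, the summed level of the 10 listed was 118 to 133 CPM in Control and 122 to 135 CPM in LMF, and Siglech, a defining one, had at most 6 counts per library. Of 8 neutrophil markers 4 rose and 1 fell, with sums of 1331 to 1393 and 1464 to 1683 CPM. Of 6 monocyte markers 3 rose and 2 fell. The part of these shifts in the change of the interferon response genes was not tested.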

How the data were processed

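Per the submitters' processing notes, Trimmomatic, HISAT2 2.0.5, HTSeq and DESeq2 were used with mm10, without role or order. The authors deposited unnormalized counts for each gene in each library, with FPKM values alongside. Only 1 of the 34 genes has the start and end that GENCODE M21 (mm10) gives, so the table's coordinates are not printed, and RefSeq promoters carry their own build. Strand handling and annotation are not given in the sources used here.

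Counts were tested with edgeR 4.0.16 (R 4.3.3): filterByExpr, TMM, robust quasi-likelihood F test with group as the only term, Benjamini-Hochberg adjustment over 14074 genes. SEs were derived from the fold change and its F statistic. Pairs of libraries differed by more than sampling noise (chi-square per degree of freedom 3.50 to 7.80 within groups). Alternatives were DESeq2 1.42.0 size factors and test, library size alone, limma-voom (limma 3.58.1), other filters, log2 FPKM with pseudocounts of 1 and 0.1, a replicate block and leaving out each library. Transcript 50-mers come from GENCODE M21. Of the lists, 6 symbols had no row under that name.

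Members and lists were chosen with earlier results of these data known. The rule for names takes all members, of each pathway list the 3 called genes with the smallest adjusted p, or the smallest where fewer are called, and 10 genes by name, of which 1 is not reported here. Marker genes are named as examples.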

Additional observations from a re-analysis of the deposited data

Results flagged for a closer look

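Among the interferon response genes 1 of 68 groups of 4 libraries held a library far from the other 3 by Dixon's test. For Ifih1, LMF replicate 1 had 35.7 CPM while the rest of LMF had 39.9 to 40.6. Among the pathway genes named, Irf3 was at 69.7 CPM in Control replicate 3 (65.6 to 66.2 in the others) and at 61.3 CPM in LMF replicate 1 (54.3 to 55.1 in the others). For Tlr4, LMF replicate 1 had 80.5 CPM while the rest of LMF had 97.6 to 99.9. In all 4 of 114 groups stood out, and chance flags about 1 in 20.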

How the results depend on the processing

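The count of 24 called interferon response genes was 21 to 24 under the 9 other settings and 19 to 24 without 1 library, and none was called lower under any of them. Of the 24, 19 were called under all 17 alternatives, and the exceptions were Ifih1, Zbp1, Xaf1, Stat2 and Irf9. The median log2 fold change was 0.28 (log2(FPKM + 1)) to 0.36 under other settings and 0.29 to 0.37 without 1 library. The pathway count of 67 was 61 to 69 and 61 to 68, and the count over all genes of 4845 was 4288 to 4845 and 4307 to 5047. Same-numbered libraries did not deviate together (correlations of -0.01 to 0.03), which cannot exclude that they share a mouse or culture. With the replicate block 23 of the 34 genes were called, Irf9 being the one lost (Irf9 log2 fold change 0.13, adjusted p = 0.0553). Without 1 library the sign turned for 3 genes that never passed, Oas3 (-0.096 to 0.059), Ifi44 (-0.26 to 0.055) and Irf8 (-0.079 to 0.019), and the cause was not tested. Ifnar2, not called, passed under 6 alternatives. Depth limits Ifnb1, Ifi44 and Ifit3b.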
